A study of Mus musculus with 20 samples.

Results

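The mice described here carried the control vector, AAV5 (an adeno-associated virus that enters brain cells) making GFP (green fluorescent protein) alone from a synapsin promoter, which is active in neurons. Adult male C57BL/6 mice had received it in the hippocampus, the fold of cortex that forms memories, and RNA was taken from the whole dissected tissue of each mouse. There were 3 such mice in the miR-124 experiment (GFP124, mice 8, 15 and 20) and 3 in the miR-125 experiment (GFP125, mice 4, 14 and 15), chosen by their labels as 6 of the 20 samples of the series. Vector, strain and tissue were the same, and the labels gave no other difference between the groups than the experiment. The other mice with mRNA-seq libraries, 3 with GFP-miR124sp (miR124sp, from the first experiment) and 3 with GFP-miR125sp (miR125sp, from the second), made GFP with a sponge, an RNA that binds up the named microRNA, from the same promoter. They were used for comparison only, because they share no library with the GFP mice. The 8 libraries of RNA bound to AGO2 were not used.

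The values are reads that the authors counted per RefSeq transcript, summed here per gene, and levels are given as CPM, a gene's share of the counts of its library scaled to a common total, in the order of the mice named above. A difference is the log2 of GFP124 over GFP125 ± its standard error (3 mice per group), so that a negative value means a lower level in GFP124. Genes are called at a Benjamini-Hochberg adjusted p below 0.05 in edgeR's quasi-likelihood test. CPM are shares of a library and are not corrected for transcript length, so that they compare mice and not genes. In bulk tissue, fewer cells of a type and less RNA per cell cannot be told apart.

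As background, neurons answer synaptic activity within minutes by transcribing immediate early genes such as Fos and Egr1, whose products are transcription factors and signalling proteins. In hippocampus they are used to mark recently active cells. The tissue also holds inhibitory interneurons, astrocytes, which take up glutamate, microglia, the resident immune cells, and myelinating oligodendrocytes, each with its own marker genes.

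The libraries held 17886687, 27833176 and 20012219 counts in GFP124 mice, against 25831488, 7190513 and 6950522 in GFP125 mice, and 13064658 to 21159193 in the sponge mice. A mark, Comb, which the sources do not explain, stood in the file headers of all GFP124 mice, of GFP125-4, of miR124sp-14 and of all miR125sp mice. On the first principal component of the 12 mRNA-seq libraries (38.4% of the variance) the GFP124 mice lay at -18.0, -26.7 and -21.7 and the GFP125 mice at 3.45, 3.56 and 7.59, with the sponge mice between -3.35 (miR124sp-9) and 16.9. The labels call the cells hippocampal neurons, but the tissue held other cells as well: 14 of 16 astrocyte markers, 19 of 20 oligodendrocyte and myelin markers and 13 of 16 microglial markers had enough counts to be tested, beside 21 of 24 neuronal ones. The male-specific Ddx3y had 97.9, 102 and 94.1 CPM in GFP124 mice and 104, 93.3 and 87.7 CPM in GFP125 mice, and Xist had 11 counts in all 6 mice together. Snap25, a protein of the vesicle fusion machinery found throughout neurons, had 200.1, 173 and 156 CPM in GFP124 mice and 165, 176 and 175 CPM in GFP125 mice (difference 0.04 ± 0.09, adjusted p = 0.788).

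Between these mice of the same vector and tissue, 4055 of 13224 genes tested (30.7%) were called, 1908 higher (14.4%) and 2147 lower (16.2%) in GFP124. Most differences were small, with a median size of 0.41 on the log2 scale, 2722 under 0.5 and 170 of 1 or more. Of the called genes, 3921 had no overlap between the 3 GFP124 and the 3 GFP125 values, which 44.4% of all genes tested had. The spread among mice of a group was also small, with a biological coefficient of variation of 8.53%. A test against a 1.2-fold difference (edgeR's glmTreat) called 920 genes. Leaving out GFP124-15 gave 2448 calls and leaving out GFP125-4 gave 2647. With the Comb mark as a term in a fit of all 12 mice there were 3133 calls (23.4% of 13413 tested), and between the marked libraries alone, 3 GFP124 against GFP125-4, there were 972 (6.9% of 14091 tested).

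The same contrast between the experiments in the sponge mice, miR124sp against miR125sp, called 232 of 12736 genes (1.82%). That comparison differs in the sponge as well as in the experiment, which cannot be told apart in it, and its count rests on single mice: it was 1907 without miR124sp-9 (14.6%), and in edgeR 0 without miR124sp-2, miR124sp-14, miR125sp-6 or miR125sp-9, with 2287, 1805, 1776 and 1711 genes at an unadjusted p below 0.05. Genes called in both numbered 111, or 2.74% of the calls of the GFP mice and 48.1% of the 231 sponge calls also tested in the GFP mice, and 95 of them had the same sign. The difference between both contrasts passed the interaction test for 1937 of 13413 genes (14.4%). Of 4054 genes called between the GFP mice and tested there, 1642 were among them. These 4054 were picked by a difference that is part of the interaction, so that their share is raised by the choice.

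The differences were graded by transcript length, taken as the longest RefSeq transcript of a gene with a count. Short transcripts took up more of the counts in every GFP124 mouse than in any GFP125 mouse. Genes under 1 kb held 5.54%, 6.19% and 6.16% of the counts in GFP124 mice, against 4.33%, 4.21% and 4.18% in GFP125 mice and 4.23% to 4.61% in the sponge mice. Genes of 4 kb or more held 37.2%, 36.1% and 38.3% in GFP124 mice, against 40.1%, 40.5% and 41.0% in GFP125 mice. The log2 ratio of these sums was -2.64 ± 0.10 in GFP124 mice and -3.26 ± 0.04 in GFP125 mice (SD, n = 3 each), a difference of 0.61 with no overlap (exact two-sided permutation test, p = 0.1, the smallest that 3 against 3 mice allow). Between miR124sp and miR125sp mice it differed by -0.0049 (exact permutation p = 1).

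**Figure D1:**
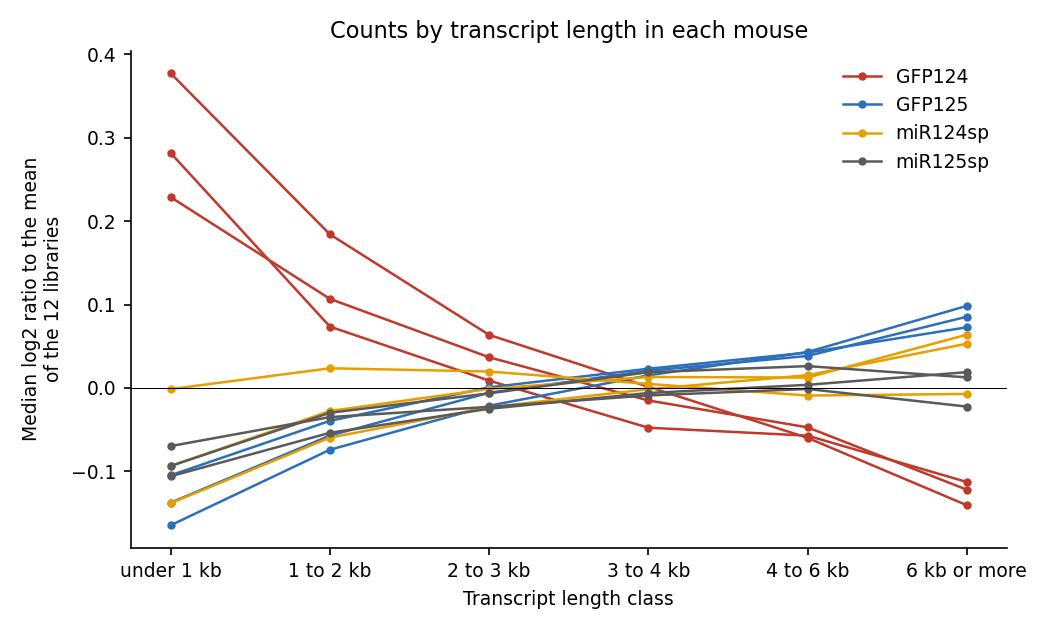
Median log2 ratio of each mouse's level to the mean of the 12 libraries, by class of transcript length, with 1 line per mouse coloured by group. Under 1 kb the GFP124 mice lay at 0.23, 0.38 and 0.28 and the GFP125 mice at -0.10, -0.14 and -0.16, and at 6 kb or more at -0.12, -0.14 and -0.11 in GFP124 and at 0.07, 0.09 and 0.10 in GFP125.

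The gradient ran through all classes. Under 1 kb, 545 of 1038 genes were higher in GFP124 and 12 lower, with a median difference of 0.42. From 1 to 2 kb, 674 of 3082 were higher and 104 lower (median 0.18), and from 2 to 3 kb both directions were near equal, with 341 higher and 329 lower of 3112 (0.02). From 3 to 4 kb, 168 were higher and 470 lower of 2302 (-0.05), from 4 to 6 kb 130 and 616 of 2318 (-0.12), and at 6 kb or more 50 and 616 of 1372 (-0.25). Across all genes tested, Spearman's rho of length and difference was -0.46, given as a description, since genes of a library share its depth and preparation. Within single libraries, rho of length and the ratio to the mean of the 12 libraries was -0.45, -0.50 and -0.32 in GFP124 mice and 0.30, 0.32 and 0.38 in GFP125 mice, and between -0.07 (miR124sp-9) and 0.25 in sponge mice. Between the 3 marked GFP124 libraries and the marked GFP125-4 the class medians were 0.43 under 1 kb and -0.25 at 6 kb or more, and with the mark as a term 0.44 and -0.24. GFP125-4 alone stands for GFP125 in the first of these. In the sponge contrast the class medians stayed within -0.02 and 0.02. GC content was taken from a gene's longest annotated coding transcript, and the 83.0% of genes tested that had such a value were used. Over these, rho of GC content was -0.21 with length and 0.066 with the difference. They were also cut into 4 classes of GC content, near equal in size over all lengths. Under 1 kb the class medians from lowest to highest were 0.44, 0.41, 0.40 and 0.36, over 83, 154, 205 and 239 genes. Whether base composition has a part in the gradient was not tested.

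**Figure D2:**
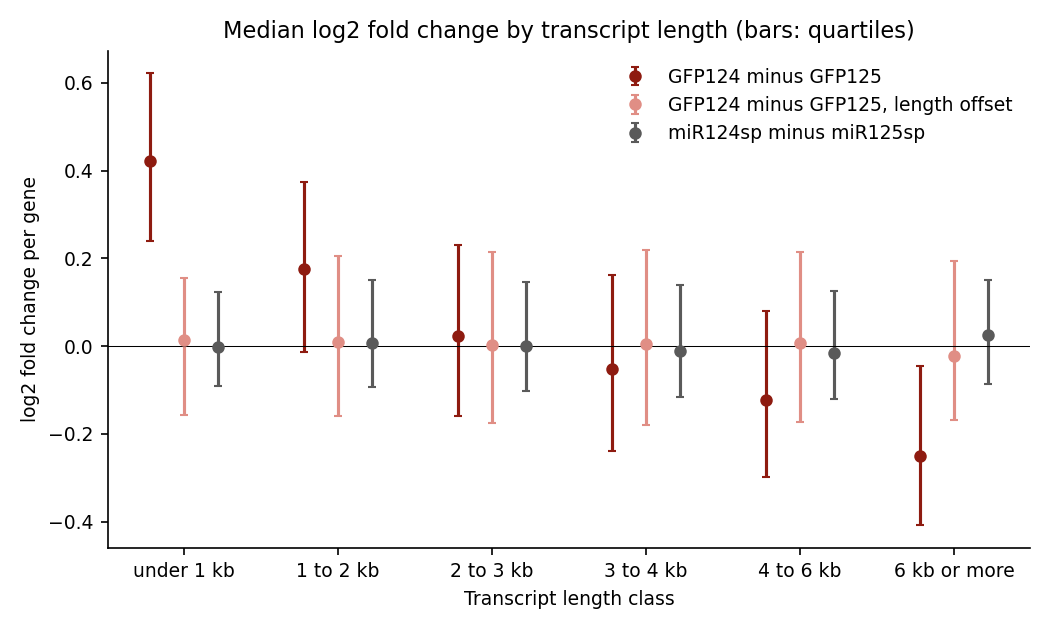
Median (points) and quartiles (bars) of the log2 difference per gene in each class of transcript length, for GFP124 minus GFP125, the same with a length offset in the fit, and miR124sp minus miR125sp. The medians of GFP124 minus GFP125 ran from 0.42 under 1 kb to -0.25 at 6 kb or more, and those of the other fits lay near 0 in every class.

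Gene groups and most named genes below are also given from a fit in which a smooth curve over transcript length was taken out of every library (length offset). By its construction the class medians then lay between -0.02 and 0.01. It called 2462 genes (18.6%), 1100 higher (8.32%) and 1362 lower (10.3%), and 1941 of the 4055 calls (47.9%) were called in both fits, 1931 of them in the same direction. Over all genes tested the median difference was 0.02 without and 0.0046 with the offset.

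Genes of the protein-making and respiratory machines, whose mRNAs are mostly short, were higher in GFP124 almost throughout. Of 76 cytosolic ribosomal protein genes 72 were higher and none lower (median 0.60). Together they took up 16603, 18991 and 19701 CPM in GFP124 mice, against 12478, 12012 and 11936 CPM in GFP125 mice. With the length offset 22 were higher and 1 lower. In the sponge contrast the median over 74 genes was -0.0011, and the difference between both contrasts was called as positive for 72 and as negative for none (7.06% and 7.38% of all genes tested). Rps12 (518 bases), a protein of the small ribosomal subunit, had 81.4, 89.7 and 102 CPM in GFP124 mice and 51.2, 48.3 and 47.3 CPM in GFP125 mice, without overlap (0.89 ± 0.09, adjusted p = 0.000357), and was still called with the offset (0.36, adjusted p = 0.00913). Ribosomal protein genes have many near-identical copies in the genome, and the handling of reads shared between copies is not known.

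Genes of other complexes were called higher as well. Of 68 genes of oxidative phosphorylation, the mitochondrial chain that makes ATP, 54 were higher and none lower (median 0.44), against 6 higher and 4 lower with the offset. Atp5e, a small subunit of ATP synthase (414 bases), had 120.3, 139.9 and 151 CPM in GFP124 mice and 83.0, 79.6 and 77.4 CPM in GFP125 mice (0.77 ± 0.09, adjusted p = 0.000357), and 0.16 with the offset (adjusted p = 0.0945). Mitochondrial ribosomal protein genes were higher in 40 of 72 and lower in none (0.26; with the offset 8 higher and 3 lower), and proteasome subunits, which degrade tagged proteins, in 14 of 36 and lower in none (0.19; with the offset 3 and 3). Without GFP124-15 21 of the mitochondrial ribosomal genes were higher, and without GFP125-14 26. Between marked libraries alone 37 of 79 cytosolic ribosomal genes were higher, 25 of 69 of oxidative phosphorylation and 7 of 73 mitochondrial ribosomal genes. Of 37 proteasome genes edgeR called none there (7 higher and 1 lower at an unadjusted p below 0.05). Of these complexes, Mrpl28, of the large mitochondrial subunit, kept its call with the offset (0.54 without and 0.27 with it, adjusted p = 0.0157), and Psmb1, of the proteasome core, did not (0.38 and 0.10, adjusted p = 0.264).

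Histone genes and small non-coding RNAs were also higher. Of 39 histone genes 22 were higher and 2 lower (0.72; with the offset 6 and 2). H1f4, a linker histone that packs chromatin, had 3.80, 4.22 and 4.29 CPM in GFP124 mice and 1.68, 1.83 and 1.76 CPM in GFP125 mice (1.24 ± 0.20, adjusted p = 0.000880; 0.86 with the offset, adjusted p = 0.0126). Of 21 small nucleolar RNAs, which guide the modification of ribosomal RNA, 10 were higher and none lower (0.89; with the offset 1 higher and 2 lower). They stood at low counts: Snord55 had 1.51, 1.21 and 1.35 CPM in GFP124 mice and 0.273, 0.282 and 0.294 CPM in GFP125 mice (2.24 ± 0.36, adjusted p = 0.000968; 1.36 with the offset, adjusted p = 0.0328). DESeq2 called 2 of the 21, and edgeR 5 or 6 without any 1 mouse other than GFP124-8. Of 1120 microRNA precursors 24 could be tested, with 5 higher and none lower (0.47; with the offset 2 and 4) and 10 higher without GFP124-8. The share of precursors called was 20.8%, against 30.7% of all genes tested. Their rows hold the precursor or its host transcript and not the mature microRNA. Mir682 was higher without and lower with the offset (0.62 and -0.26, adjusted p = 0.000413 and 0.0341).

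**Figure D3:**
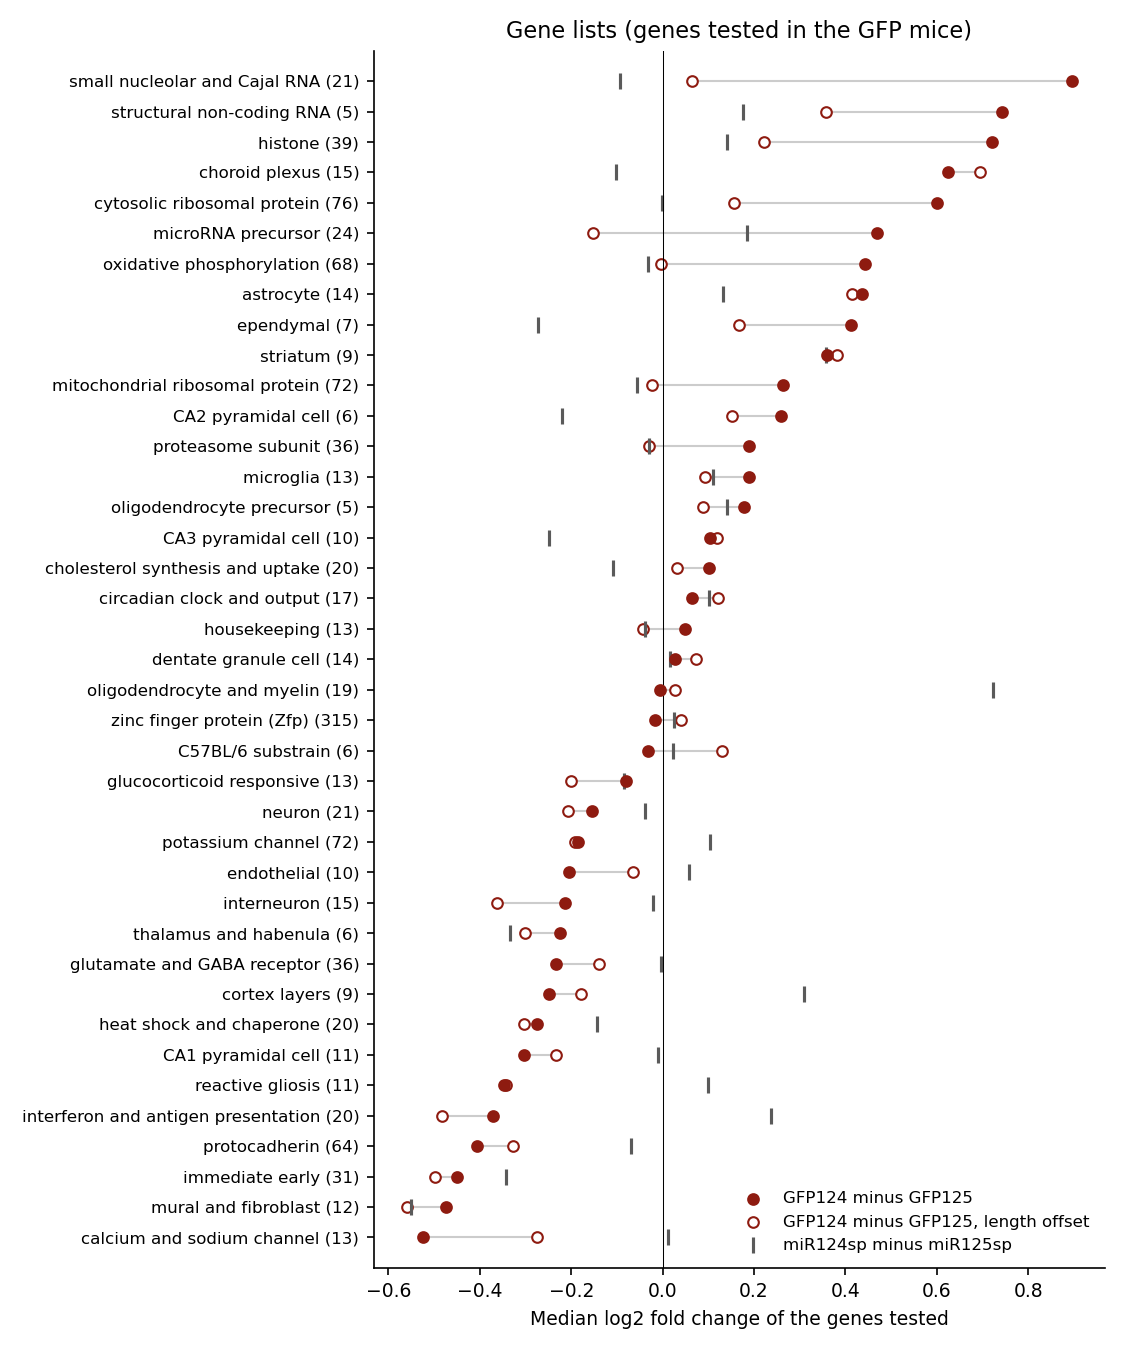
Median log2 difference of the genes tested in each list (number in brackets), as GFP124 minus GFP125 (filled points), the same with the length offset (open points) and miR124sp minus miR125sp (ticks). The ribosomal protein list moved from 0.60 to 0.16 with the offset, and the immediate early list stood at -0.45 without and -0.50 with it.

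Not all short transcripts were higher. Of the 12 genes under 1 kb that were lower in GFP124, 4 had under 1 CPM and none was called in the sponge contrast. All 12 were also lower with the offset, but the offset shifts short transcripts downwards, so that this gives no separate support. Ptgds (805 bases), the prostaglandin D synthase made by the meninges around the brain, had 393, 490.5 and 438 CPM in GFP124 mice and 710.4, 571 and 835 CPM in GFP125 mice (-0.68 ± 0.13, adjusted p = 0.00205; -1.06 with the offset). Zdhhc22 (792 bases), an enzyme that attaches palmitate to proteins, had 5.31, 5.56 and 3.90 CPM in GFP124 mice and 8.36, 7.90 and 8.82 CPM in GFP125 mice (-0.76 ± 0.16, adjusted p = 0.00484). Rims3, of the active zone of synapses, was lower as well (-0.47 ± 0.13, adjusted p = 0.0197), but was not called without GFP125-15 (adjusted p = 0.0679).

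Against the length gradient on the other side, 50 genes of 6 kb or more were higher in GFP124. All 50 were also higher with the offset, but the offset shifts long transcripts upwards, so that this gives no separate support. In the sponge contrast 7 of the 50 were called higher and 1 lower. Several of the 50 were long non-coding RNAs of the nucleus. Malat1 (6982 bases), which gathers in nuclear speckles, had 1242, 1678 and 2140.1 CPM in GFP124 mice and 765, 868 and 899 CPM in GFP125 mice, without overlap (1.00 ± 0.16, adjusted p = 0.000816). Meg3 (11472 bases), expressed from the maternal chromosome in neurons, had 164, 231 and 291 CPM in GFP124 mice and 102, 119.6 and 129.7 CPM in GFP125 mice (0.98 ± 0.16, adjusted p = 0.00112). Kcnq1ot1 (83437 bases), the paternally expressed antisense RNA of an imprinted region, had 43.3, 78.6 and 45.7 CPM in GFP124 mice and 24.1, 24.3 and 34.2 CPM in GFP125 mice (1.06 ± 0.21, adjusted p = 0.00284). All GFP124 values lay above all GFP125 values in these 3 genes.

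Sponge mice of the first experiment were also higher in these RNAs than those of the second. Malat1 had 1041, 1400.4 and 1657 CPM in miR124sp mice and 433, 507 and 729.7 CPM in miR125sp mice (1.30 ± 0.21, adjusted p = 0.0330). Kcnq1ot1 had 43.3, 62.5 and 75.8 CPM in miR124sp mice and 13.7, 17.2 and 24.1 CPM in miR125sp mice (1.71 ± 0.24, adjusted p = 0.0233). Meg3 had 144, 154 and 226 CPM in miR124sp mice and 64.4, 91.4 and 110.4 CPM in miR125sp mice, which did not pass (0.98 ± 0.21, adjusted p = 0.0594). Neat1, the scaffold of paraspeckles, had 131, 186 and 219.9 CPM in GFP124 mice and 96.1, 117 and 99.8 CPM in GFP125 mice (0.79 ± 0.15, adjusted p = 0.00220). In the 3-against-1 fit of the marked libraries Malat1, Meg3, Kcnq1ot1 and Neat1 had adjusted p = 0.0431, 0.0331, 0.0383 and 0.0452. As for genes of uncertain counts, the pseudogene transcripts Pisd-ps1 and Pisd-ps2 and the gene Sfi1, which share sequence with other loci, were higher as well. Pisd-ps1 had 472, 636 and 623 CPM in GFP124 mice and 263, 266 and 292 CPM in GFP125 mice (1.08 ± 0.11, adjusted p = 0.000357; 1.09 with the offset). Sfi1 had 46.1, 53.0 and 54.4 CPM in GFP124 mice and 25.2, 27.1 and 30.1 CPM in GFP125 mice (0.92 ± 0.09; 1.01 with the offset). These values are uncertain, because reads of similar copies could have been split between them.

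Long coding genes that were higher, chosen after their values were seen, included Shank3, a scaffold of excitatory synapses, with 547, 523 and 746 CPM in GFP124 mice and 389.7, 442 and 449 CPM in GFP125 mice (0.51 ± 0.12, adjusted p = 0.00852; 0.72 with the offset). Nwd1, likewise chosen, had 159.6, 169 and 197 CPM in GFP124 mice and 105, 122 and 127 CPM in GFP125 mice (0.58 ± 0.09, adjusted p = 0.000972; 0.82 with the offset). More genes of this length were lower than higher. Fry (10730 bases) had 282, 255 and 250.1 CPM in GFP124 mice and 423, 454 and 459.6 CPM in GFP125 mice (-0.76 ± 0.08, adjusted p = 0.000357), and Plxna2 (11035 bases), a receptor for the guidance cues called semaphorins, had 186, 168 and 168 CPM in GFP124 mice and 263, 286 and 277 CPM in GFP125 mice (-0.66 ± 0.07, adjusted p = 0.000357). Both were lower with the offset too (-0.48 and -0.38), and between sponge mice their differences were 0.01 and 0.01 (adjusted p = 0.968 and 0.956).

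**Figure D4:**
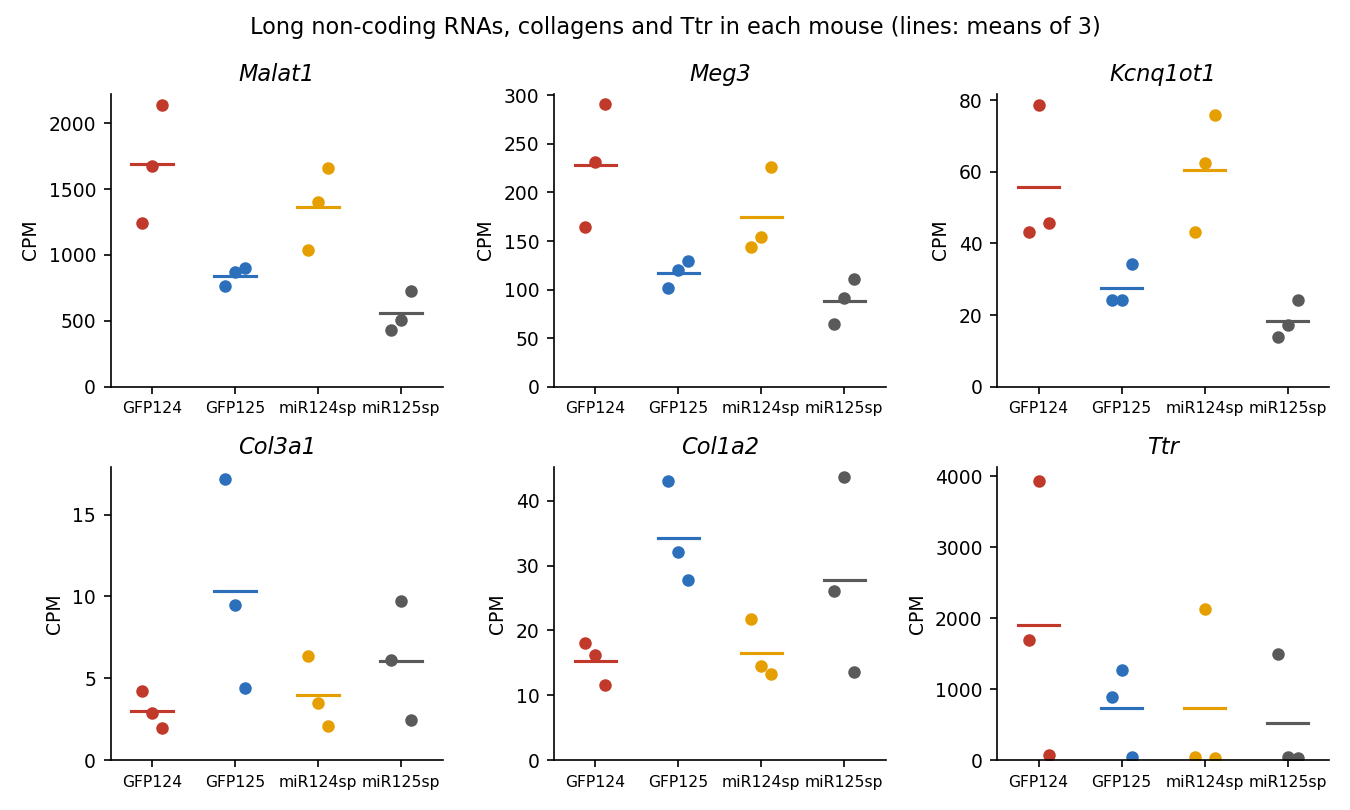
CPM in each mouse of the 4 groups (points) and group means of 3 mice (lines) for 3 long non-coding RNAs, 2 fibrillar collagens and the choroid plexus gene Ttr. Malat1, Meg3 and Kcnq1ot1 were higher in every GFP124 mouse than in any GFP125 mouse, Col3a1 and Col1a2 lower in every one, and Ttr followed no group.

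Immediate early genes were lower in GFP124. Of 31 tested, 19 were lower and none higher, 30 had a value below 0 (47.7% of all genes tested had one) and the median difference was -0.45. The median length of the list was 2797 bases, close to the 2788.5 bases of all genes tested, and with the offset 18 were lower, none was higher and the median was -0.50. Summed, the 34 genes of the list took up 911, 831 and 887 CPM in GFP124 mice, against 1291, 1381 and 1303 CPM in GFP125 mice. Leaving out 1 mouse at a time gave 13 (without GFP124-15) to 19 genes lower, with 1 gene higher without GFP124-20 and none without any other mouse. With the Comb mark as a term in the fit of 12 mice 13 were lower (11.9% of all genes tested), between marked libraries only 10 (3.96%), and none was higher in either. Gadd45g, a stress-response gene, was the only member above 0 (0.24 ± 0.12, adjusted p = 0.160) and is named, like Egr2, Egr4, Npas4, Dusp1 and Sik1, after its value was seen.

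Fos, which forms the AP-1 transcription factor with Jun proteins, had 9.16, 8.02 and 9.19 CPM in GFP124 mice and 26.9, 35.7 and 37.2 CPM in GFP125 mice. Every GFP124 mouse lay below every GFP125 mouse, with a level 3.72 times as high in GFP125 (-1.90 ± 0.13, adjusted p = 4.53e-05). Egr1, a zinc finger transcription factor, had 103, 92.1 and 117 CPM in GFP124 mice and 234, 285 and 229 CPM in GFP125 mice (-1.26 ± 0.10, adjusted p = 0.000145). Nr4a1, an orphan nuclear receptor, had 37.3, 42.3 and 50.8 CPM in GFP124 mice and 77.8, 124 and 90.8 CPM in GFP125 mice (-1.15 ± 0.15, adjusted p = 0.000440). Neither gene had values that overlapped between the groups. Junb, an AP-1 partner of Fos, was lower by less, with 55.8, 50.7 and 50.8 CPM in GFP124 mice and 78.8, 83.1 and 83.8 CPM in GFP125 mice (-0.64 ± 0.07, adjusted p = 0.000357).

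The low-level Egr2 had 1.90, 1.94 and 2.50 CPM in GFP124 mice and 3.71, 8.61 and 9.11 CPM in GFP125 mice (-1.64 ± 0.31, adjusted p = 0.00235). Egr4, of the same family, had 21.2, 20.0 and 23.6 CPM in GFP124 mice and 33.8, 34.6 and 31.4 CPM in GFP125 mice (-0.63 ± 0.09, adjusted p = 0.000563). Dusp1, a phosphatase that switches off MAP kinases, had 21.4, 18.2 and 17.0 CPM in GFP124 mice and 25.4, 33.0 and 41.6 CPM in GFP125 mice (-0.78 ± 0.15, adjusted p = 0.00278). The kinase Sik1 had 13.9, 13.9 and 14.4 CPM in GFP124 mice and 21.0, 24.0 and 25.6 CPM in GFP125 mice (-0.72 ± 0.10, adjusted p = 0.000536). In these 4 genes, too, no value of a GFP124 mouse reached one of a GFP125 mouse. Npas4, a transcription factor induced by calcium entry, was less uniform: GFP125-4, at 10.3 CPM, lay within the 8.55, 10.4 and 10.8 CPM of the GFP124 mice, while GFP125-14 and GFP125-15 had 16.5 and 28.1 CPM (-0.79 ± 0.27, adjusted p = 0.0426), and its call was lost without GFP125-15 (adjusted p = 0.183) and with the offset (adjusted p = 0.0856). Arc, of the same list, had no count in any of the 12 mRNA-seq mice, which does not show that it is unexpressed.

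**Figure D5:**
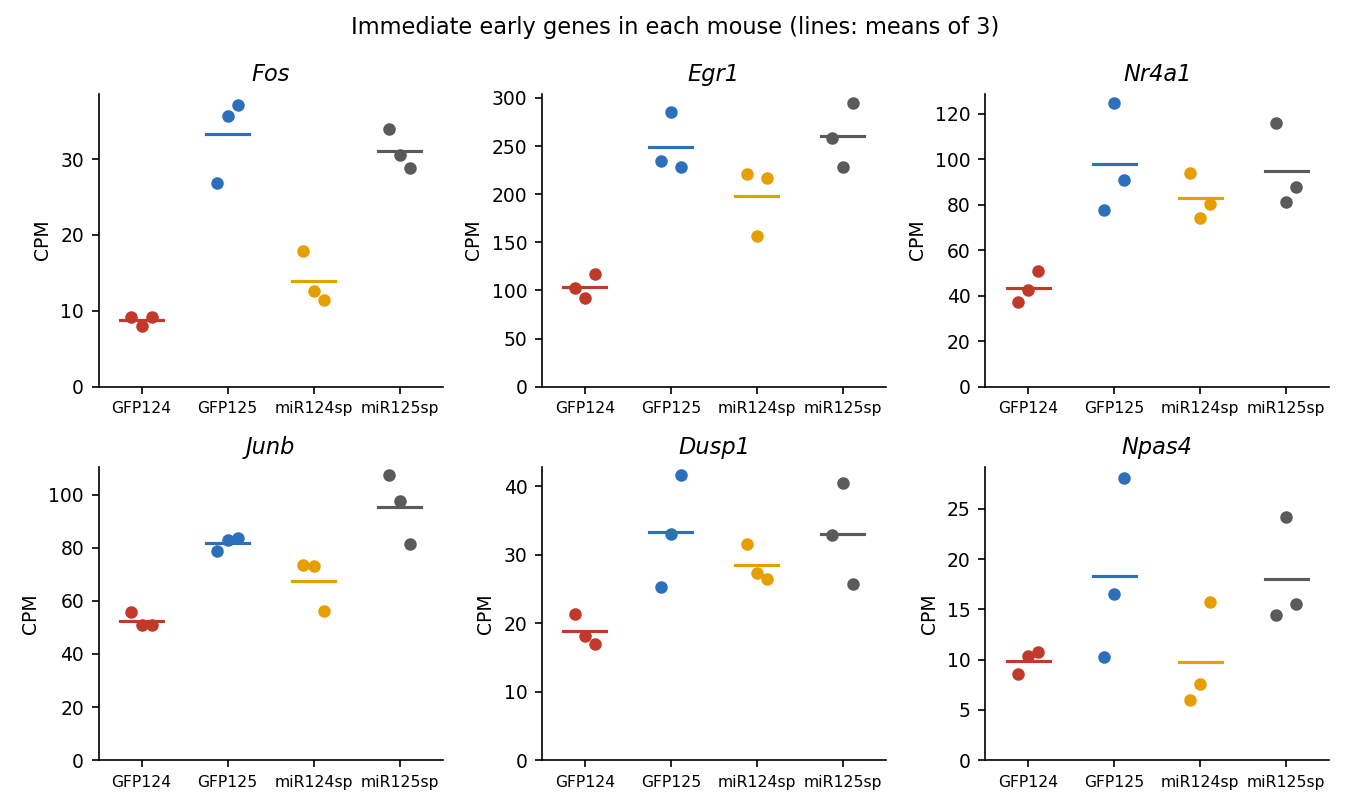
CPM of 6 immediate early genes in each mouse of the 4 groups (points) and group means of 3 mice (lines). Fos, Egr1, Nr4a1, Junb and Dusp1 were lower in each GFP124 mouse than in any GFP125 mouse, and Npas4 overlapped through GFP125-4.

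In the sponge mice fewer of these genes differed. There 3 of the 31 genes were called, all lower in miR124sp than in miR125sp (0.809% of all genes tested were lower): Fos, Egr2 and Egr4. Values below 0 were found for 27 of the 31, against 50.3% of all genes tested. Without miR124sp-9 8 were lower and 1 higher, where 6.75% and 7.89% of all genes tested were. Fos had 17.9, 12.5 and 11.4 CPM in miR124sp mice and 33.9, 30.5 and 28.8 CPM in miR125sp mice (-1.15 ± 0.15, adjusted p = 0.0223). Egr2 had 3.54, 2.57 and 2.06 CPM in miR124sp mice and 6.91, 5.41 and 6.37 CPM in miR125sp mice (-1.19 ± 0.21, adjusted p = 0.0385). Nr4a1, with 94.1, 74.3 and 80.4 CPM in miR124sp mice and 116, 81.1 and 87.9 CPM in miR125sp mice, overlapped and did not pass (-0.19 ± 0.13, adjusted p = 0.472). For Fos, Egr1 and Nr4a1 the difference in the GFP mice exceeded that in the sponge mice (interaction -0.74, -0.86 and -0.96, adjusted p = 0.0390, 0.00846 and 0.0163), and for Junb and Egr2 it was not shown to (-0.14 and -0.46, adjusted p = 0.597 and 0.518). The summed level of the list was 1269, 1141 and 1116 CPM in miR124sp mice and 1437, 1336 and 1373 CPM in miR125sp mice, so that the GFP124 mice were the lowest of the 4 groups.

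Immediate early promoters are known to hold cyclic AMP response elements, bound by the factor CREB, whose core has the letters TGACG. On the other strand this core reads as CGTCA when written in the same direction. The promoter sequences of RefSeq (assembly GRCm38.p6, 250 bases before to 50 after the start of the gene) were matched by symbol, and TGACG stood on either strand in 21 of the 27 immediate early genes with a promoter there (77.8%), against 6228 of all 27025 promoters (23.0%). It stood in 11 of the 15 called genes and in 10 of the 12 others, so that its presence did not separate them. A full element, TGACGTCA, holds both cores, which overlap. A match is a description of the letters and not a bound site. The windows below, 5′ to 3′ on the strand of the gene with the core in capitals, are shown for 6 genes described above that hold it, as an example of the letters that such promoters share. Each is named with its position and the distance from its first base in capitals to the gene's start.
Fos, chr12:85473814-85473838, plus strand, 66 bases before the start: ttccgcccagTGACGtaggaagtcc
Junb, chr8:84978840-84978864, minus strand, 106 bases before: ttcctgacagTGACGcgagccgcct
Nr4a1, chr15:101266796-101266820, plus strand, 40 bases before: cctctccatgCGTCAcggagcgctt
Egr2, chr10:67537804-67537828, plus strand, 55 bases before: tgggcagcgaCGTCAcgggtattga
Npas4, chr19:4990126-4990150, minus strand, 169 bases before: cgtcacgggaTGACGtcggaagtct
Dusp1, chr17:26508601-26508625, minus strand, 143 bases before: gtagggcgggTGACGtcaccgcccg

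Genes of other cell states were also called. Of 20 heat shock and chaperone genes, which help proteins fold, 9 were lower and 1 higher (median -0.27; with the offset 9 lower and none higher). Between marked libraries alone edgeR called none lower (6 at an unadjusted p below 0.05) and 1 higher, and without GFP125-14 5 were lower. Hsph1, a partner of Hsp70, had 405, 339.9 and 331 CPM in GFP124 mice and 515, 515 and 556 CPM in GFP125 mice (-0.56 ± 0.09, adjusted p = 0.000868). The mitochondrial chaperonin Hspe1, the one that was higher, had 88.3, 92.7 and 94.3 CPM in GFP124 mice and 67.0, 64.8 and 64.1 CPM in GFP125 mice (0.49 ± 0.07; 0.10 with the offset, adjusted p = 0.258). Of 13 glucocorticoid-responsive genes 3 were higher and 4 lower, with 2 lower without GFP124-15 or without GFP125-4. Among them Fkbp5, a chaperone of the steroid receptor, had 75.2, 60.4 and 77.2 CPM in GFP124 mice and 101, 82.8 and 86.8 CPM in GFP125 mice (-0.36 ± 0.10, adjusted p = 0.0185; 0.116 without GFP125-4). The metal-binding Mt2 had 131, 168 and 160.3 CPM in GFP124 mice and 77.5, 94.2 and 84.9 CPM in GFP125 mice (0.85 ± 0.10, adjusted p = 0.000413; 0.34 with the offset). Of 17 clock genes 3 were higher and 2 lower, with 1 lower without GFP124-15 or without GFP125-14. The share of clock genes called, 29.4%, was near the 30.7% of all genes tested. Dbp, a clock output factor, had 45.5, 48.4 and 49.3 CPM in GFP124 mice and 30.6, 26.7 and 38.9 CPM in GFP125 mice (0.59 ± 0.11, adjusted p = 0.00197). Bhlhe40, a repressor in the clock, had 105, 102 and 114 CPM in GFP124 mice and 162, 135 and 132 CPM in GFP125 mice (-0.42 ± 0.09, adjusted p = 0.00318).

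Of 20 interferon-response and antigen-presentation genes 6 were lower and none higher (median -0.37), but these calls rested on single mice. The share called was 30%, where 30.7% of all genes tested were called and 16.2% were lower. Ifit1, an interferon-induced sensor of viral RNA, had 4.69, 4.56 and 5.69 CPM in GFP124 mice, against 12.2 CPM in GFP125-4 and 6.63 and 5.58 CPM in the other GFP125 mice (-0.82 ± 0.24, adjusted p = 0.0213). Without GFP125-4 edgeR called none of the 20 (1 at an unadjusted p below 0.05), and without GFP124-15 also none (8 at an unadjusted p below 0.05), while without GFP125-15 10 were lower. Between marked libraries alone 10 of 21 were lower. Of 11 markers of reactive glia 1 was lower, S1pr3, a sphingosine phosphate receptor (-0.53 ± 0.12, adjusted p = 0.00533; 0.0568 without GFP125-4). The share of this list called was 9.09%, under the 30.7% of all genes tested. Between marked libraries alone 5 of 12 were lower, and without GFP125-15 3 of 11. Gfap, the intermediate filament of astrocytes that increases in gliosis, had 439, 487 and 523 CPM in GFP124 mice and 703, 483 and 371 CPM in GFP125 mice, where GFP125-4 was the highest (-0.11 ± 0.17, adjusted p = 0.665).

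Markers of the cell types of the tissue differed in both directions. Astrocyte markers were higher: 9 of 14 were called higher and none lower (median 0.44), and 9 higher and none lower with the offset as well. Their summed level was 7618, 8139 and 8781 CPM in GFP124 mice, against 6520, 6294 and 6529 CPM in GFP125 mice, and 7 to 9 were called with any 1 mouse left out, but 1 between marked libraries alone (2.94% of all genes tested were higher there). S100b, a calcium-binding protein of astrocytes, had 243, 267 and 316 CPM in GFP124 mice and 159, 165 and 153 CPM in GFP125 mice (0.79 ± 0.09, adjusted p = 0.000380; 0.67 with the offset). Slc1a2, the main glutamate transporter of the brain, has a long transcript (11571 bases) and was higher too, with 97.5, 113 and 134 CPM in GFP124 mice and 87.5, 80.3 and 82.7 CPM in GFP125 mice (0.45 ± 0.10, adjusted p = 0.00541; 0.74 with the offset). Mlc1, a membrane protein of astrocyte endfeet, had 363, 391 and 429 CPM in GFP124 mice and 266, 268 and 283 CPM in GFP125 mice (0.54 ± 0.08, adjusted p = 0.000572). In these 3 genes the groups did not overlap, but the calls of Slc1a2 and Mlc1 were lost between marked libraries alone (adjusted p = 0.154 and 0.0503). In the sponge contrast 1 of the 14 was called, as higher (1.01% of all genes tested were). Of the 14, 13 lay above 0 there (median 0.13), where 50.3% of all genes tested lay below 0. Without miR124sp-9 5 were called higher (7.89% of all genes tested). The difference between both contrasts was called as positive for 4 and as negative for none (7.06% and 7.38% of all genes tested).

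Microglial markers were higher in 5 of 13 and lower in none (median 0.19). The share called was 38.5%, against 30.7% of all genes tested. With the offset 4 were higher and 1 lower, against 8.32% and 10.3% of all genes tested. P2ry12, a receptor for ADP on resting microglia, had 81.8, 82.3 and 100.1 CPM in GFP124 mice and 60.5, 69.3 and 64.9 CPM in GFP125 mice (0.45 ± 0.09, adjusted p = 0.00337; 0.42 with the offset). Siglech, a sialic acid receptor, had 31.3, 33.8 and 35.5 CPM in GFP124 mice and 21.4, 24.3 and 22.3 CPM in GFP125 mice (0.58 ± 0.09, adjusted p = 0.000728). Oligodendrocyte and myelin genes stood at a median of -0.01, with 2 of 19 higher, Mobp and Olig1, whose calls were lost with the offset. Without GFP125-15 none was higher and 3 were lower. In the sponge contrast 14 of these 19 were higher in miR124sp mice (median 0.72; 1.01% of all genes tested were higher there). Mobp, a structural protein of myelin, had 15.8, 21.1 and 24.5 CPM in GFP124 mice and 15.3, 17.2 and 12.2 CPM in GFP125 mice (0.46 ± 0.16, adjusted p = 0.0457; 0.136 without GFP124-15), and 23.8, 25.3 and 32.6 CPM in miR124sp mice and 16.2, 14.1 and 16.8 CPM in miR125sp mice.

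Markers of fibroblasts and meninges were lower. Of 12 mural and fibroblast genes 7 were lower and 2 higher (median -0.47; with the offset 7 lower and none higher), and the list summed to 665, 773 and 689 CPM in GFP124 mice, against 1059, 894 and 1099 CPM in GFP125 mice. Those lower were Col1a1, Col1a2, Col3a1, Lum, Ptgds and Slc6a13, of fibroblasts and meninges, and Vtn, of pericytes. The pericyte genes Rgs5 and Kcnj8 were higher (0.27 and 0.49), but neither without GFP125-4 (adjusted p = 0.0898 and 0.0918). With the Comb mark as a term 3 were lower and 2 higher, and between marked libraries 6 were lower and none higher. Col1a2, a chain of collagen I, had 18.0, 16.3 and 11.6 CPM in GFP124 mice and 43.0, 32.0 and 27.8 CPM in GFP125 mice (-1.20 ± 0.17, adjusted p = 0.000523). Col3a1, collagen III, had 4.25, 2.90 and 1.95 CPM in GFP124 mice and 17.1, 9.45 and 4.41 CPM in GFP125 mice (-1.91 ± 0.37, adjusted p = 0.00267). Slc6a13, a GABA transporter of the meninges, had 8.72, 9.09 and 8.54 CPM in GFP124 mice and 18.0, 13.7 and 17.8 CPM in GFP125 mice (-0.92 ± 0.12, adjusted p = 0.000459). Fmod, which binds collagen fibrils, and Prg4, a lubricating proteoglycan, were among the 10 lowest genes as well (-1.32 ± 0.14 and -1.73 ± 0.35), with 8.60, 13.4 and 11.3 CPM of Fmod in GFP124 mice and 28.1, 25.8 and 30.7 CPM in GFP125 mice. With the mark as a term edgeR lost the calls of Slc6a13, Fmod and Prg4 (adjusted p = 0.0806, 0.142 and 0.228) and kept those of Col1a2 and Col3a1. In the sponge mice the mural and fibroblast list summed to 619, 492 and 492 CPM in miR124sp mice. It spread widely within miR125sp mice, with 923, 1436 and 474 CPM.

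Choroid plexus, the tissue in the ventricles that makes cerebrospinal fluid, was present in amounts that followed the mouse and not the group. Ttr, its transport protein for thyroid hormone, had 1692, 3934 and 76.8 CPM in GFP124 mice and 892, 1264 and 47.0 CPM in GFP125 mice (1.37 ± 1.01, adjusted p = 0.328), and the 18 markers of the list summed to 1890, 4481 and 139 CPM in GFP124 mice and 1068, 1449 and 107 CPM in GFP125 mice. GFP124-20 and GFP125-15 thus held little of it. Of 15 tested markers edgeR called none (1 at an unadjusted p below 0.05, none in DESeq2), with a median of 0.63 that turned to -0.34 without GFP124-15, and 7 were called higher without GFP124-20. Of 10 endothelial markers 2 were higher and 4 lower (with the offset 2 and 2), and without GFP124-15, GFP125-4, GFP125-14 or GFP125-15 1, 2, 1 or 2 were lower. Haemoglobin and other blood genes of the list were not tested, with Hbb-b1 at 0 counts in the 6 mice, which does not show that their RNA was absent.

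Among neurons, markers of inhibitory cells were lower: 7 of 15 interneuron genes were lower and 1 higher (median -0.21), and 8 were lower and none higher with the offset, but 1 was lower and none higher between marked libraries alone. Gad1, which makes GABA, had 489.5, 413 and 354 CPM in GFP124 mice and 636, 548 and 602 CPM in GFP125 mice (-0.51 ± 0.11, adjusted p = 0.00466; -0.46 with the offset). Reln, the extracellular protein reelin, had 83.1, 86.2 and 70.3 CPM in GFP124 mice and 127, 111 and 175 CPM in GFP125 mice (-0.78 ± 0.14, adjusted p = 0.00145; -0.48 with the offset). Nos1, the neuronal nitric oxide synthase, had 80.6, 68.7 and 68.0 CPM in GFP124 mice and 91.9, 116 and 121 CPM in GFP125 mice (-0.59 ± 0.10, adjusted p = 0.00162). The peptide gene Tac1, the member that was higher, had 21.7, 22.1 and 12.3 CPM in GFP124 mice and 13.9, 7.76 and 12.3 CPM in GFP125 mice, which overlapped through GFP124-20 (0.67 ± 0.22, adjusted p = 0.0396; 0.171 without GFP124-15).

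Of 21 general neuronal markers 3 were higher, Meg3, Stmn3 and Camk2a, and 7 lower (median -0.15). Without GFP124-15, and also without GFP125-4, 4 were lower. Camk2a, a kinase of excitatory synapses, was higher, with 1596, 1433 and 1884 CPM in GFP124 mice and 1048, 1182 and 1219 CPM in GFP125 mice (0.51 ± 0.11, adjusted p = 0.00466). Nefm, a neurofilament, lower, with, had 169, 132 and 143 CPM in GFP124 mice and 217, 254 and 231 CPM in GFP125 mice (-0.66 ± 0.09, adjusted p = 0.000555). Markers of single hippocampal fields were called in both directions: 3 of 14 lower for dentate granule cells, 1 higher and 5 lower of 11 for CA1, 2 higher of 6 for CA2 and 2 higher and 2 lower of 10 for CA3. The shares called were 21.4%, 54.5%, 33.3% and 40% in this order, against 30.7% of all genes tested. Of the CA1 genes 3 were lower without GFP124-15 or without GFP125-4, and of the dentate genes 5 were lower without GFP124-8 and 1 without GFP124-15. With the Comb mark as a term 2 dentate genes were higher and 1 lower. For CA2, 3 were higher without GFP124-20, 1 without GFP124-8 or GFP125-14, and none in edgeR without GFP125-4 or GFP125-15 (2 and 3 at an unadjusted p below 0.05). For CA3, 1 was higher and 1 lower without GFP124-15. Spink8, of the CA1 list, had 31.3, 30.6 and 44.5 CPM in GFP124 mice and 20.6, 20.5 and 19.5 CPM in GFP125 mice (0.80 ± 0.14; 0.37 with the offset, adjusted p = 0.0740). Markers of neighbouring regions were called in 1 of 9 for cortical layers (Tbr1, lower, -0.65 ± 0.09), 1 of 6 for thalamus and habenula (Slc17a6, lower, -0.74 ± 0.20, not called without GFP125-4, adjusted p = 0.0968) and 3 of 9 for striatum (higher). These shares were 11.1%, 16.7% and 33.3%, against 30.7% of all genes tested. In the striatal list 1 was higher without GFP124-15, 1 without GFP125-4, and 1 in DESeq2. In the cortical list 3 were lower without GFP124-20 and 2 without GFP124-8 or GFP125-14, and in the thalamic list 2 without GFP124-15. Penk, the enkephalin precursor in the striatal list, had 96.2, 54.5 and 52.3 CPM in GFP124 mice and 37.1, 44.4 and 40.1 CPM in GFP125 mice (0.75 ± 0.19, adjusted p = 0.0119), and its call was lost with the offset and without GFP125-4 (adjusted p = 0.0696 and 0.0598).

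Channels and receptors of neurons were called lower more often than higher, without and with the offset. Median lengths were 9064 bases for calcium and sodium channels, 3360 for potassium channels and 4060.5 for the receptors. That of all genes tested was 2788.5 bases. Of 13 voltage-gated calcium and sodium channel genes 7 were lower and none higher (median -0.52; with the offset 5 lower and none higher), of 72 potassium channel genes by name 25 were lower and 3 higher (-0.19; 23 and 3 with the offset), and of 36 glutamate and GABA receptor subunits 12 were lower and 2 higher (-0.23; 9 and 3). One of the 3 potassium channel names that were higher is the non-coding Kcnq1ot1. Scn2a, a sodium channel that starts action potentials, had 561, 465 and 471 CPM in GFP124 mice and 728, 723 and 753 CPM in GFP125 mice (-0.56 ± 0.09, adjusted p = 0.000923; -0.30 with the offset). Kcnc2, a fast potassium channel, had 167, 167 and 165 CPM in GFP124 mice and 228, 245 and 257 CPM in GFP125 mice (-0.54 ± 0.07, adjusted p = 0.000413). Grin2b, an NMDA receptor subunit, had 216, 180.3 and 171 CPM in GFP124 mice and 279, 332 and 351 CPM in GFP125 mice (-0.76 ± 0.10, adjusted p = 0.000461; -0.52 with the offset). Gabrg1, a GABA receptor subunit of 4771 bases, went the other way, with 72.4, 77.1 and 69.4 CPM in GFP124 mice and 47.5, 43.3 and 52.2 CPM in GFP125 mice (0.62 ± 0.08, adjusted p = 0.000440; 0.75 with the offset).

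Protocadherins, the adhesion proteins by which neurons tell their own branches from others, were lower in 32 of 64 and higher in none (median -0.41), and with the offset lower in 18 and higher in 1. Pcdhgc5, of the gamma cluster, had 123, 97.4 and 96.3 CPM in GFP124 mice and 164, 173 and 143 CPM in GFP125 mice (-0.61 ± 0.10, adjusted p = 0.00111; -0.48 with the offset). Without GFP124-15 20 of the family were lower. The genes of a cluster share their last exons, so that their counts are uncertain. Of 315 zinc finger protein genes, a family of DNA-binding proteins, 27 were higher and 48 lower (-0.02; 25 and 15 with the offset). The share of zinc finger genes called was 23.8%, under the 30.7% of all genes tested. Without GFP124-15 11 were higher and 23 lower, and without GFP125-4, GFP125-14 or GFP125-15 16, 13 or 17 were higher.

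The gene with the largest called difference upwards by the naming rule was Trh, the precursor of thyrotropin-releasing hormone. It had 11.3, 15.4 and 4.94 CPM in GFP124 mice and 1.95, 0.423 and 1.47 CPM in GFP125 mice, without overlap, a level 7.01 times as high in GFP124 (2.81 ± 0.43, adjusted p = 0.000753). The neuroglobin gene Ngb, an oxygen-binding protein of neurons, had 14.3, 14.1 and 7.19 CPM in GFP124 mice and 5.63, 4.51 and 6.17 CPM in GFP125 mice (a level 2.17 times as high in GFP124, adjusted p = 0.00472). Gng13, a G protein subunit, had 20.9, 26.9 and 30.8 CPM in GFP124 mice and 11.8, 11.6 and 15.1 CPM in GFP125 mice, a level 2.08 times as high in GFP124 (adjusted p = 0.000520). All 3 were higher in each GFP124 mouse than in any GFP125 mouse, which the naming rule required, and were called with the offset too. Among the lowest, Syt2, a calcium sensor of fast transmitter release, had 11.0, 9.36 and 8.14 CPM in GFP124 mice and 22.6, 25.8 and 26.9 CPM in GFP125 mice (-1.39 ± 0.12, adjusted p = 0.000280; -1.33 with the offset). In the sponge mice its order was turned, with 68.6, 26.6 and 72.9 CPM in miR124sp mice and 29.9, 28.6 and 37.4 CPM in miR125sp mice, which overlapped (0.82 ± 0.32, adjusted p = 0.193).

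Genes often used as a reference for other measurements were not all level, and in the fit of the 6 GFP mice they were called about as often as other genes. Of 13 tested, 30.8% were called, against 30.7% of all genes tested. The calls were 4 higher, Rpl13a, Ppia, Hprt and Tfrc, and none lower. Ppia, a protein-folding enzyme of 736 bases, had 721, 734 and 695 CPM in GFP124 mice and 524, 534 and 519 CPM in GFP125 mice (0.45 ± 0.08, adjusted p = 0.00119), and with the offset 0.04 (adjusted p = 0.703). Hprt, an enzyme of purine salvage, had 230.2, 237 and 208 CPM in GFP124 mice and 176, 157 and 166 CPM in GFP125 mice (0.43 ± 0.07, adjusted p = 0.00144; 0.24 with the offset). Actb, the cytoskeletal actin, did not pass, with 2556, 2287 and 2303 CPM in GFP124 mice and 2844, 2756 and 2607 CPM in GFP125 mice (-0.20 ± 0.09, adjusted p = 0.125), although the values did not overlap, and with the offset it was lower (-0.29, adjusted p = 0.0360). With the offset 3 of the 13 were higher and 2 lower, against 8.32% and 10.3% of all genes tested. Leaving out GFP124-8 gave 4 higher and 2 lower. DESeq2 called 4 higher and 3 lower, and so did the fit of 12 mice. Gapdh could not be tested, with 16 counts in the 6 mice together. Of 20 genes of cholesterol synthesis and uptake 5 were higher and 3 lower, a share called of 40% against 30.7% of all genes tested. With the offset 6 were higher and none lower, against 8.32% and 10.3% of all genes tested. The lower calls rested on single mice: without GFP124-15, GFP125-4 or GFP125-15 edgeR called none lower (1, 2 and 3 at an unadjusted p below 0.05), and with the Comb mark as a term 1. Tm7sf2, a sterol reductase late in that pathway, had 20.9, 20.1 and 24.0 CPM in GFP124 mice and 13.2, 13.4 and 13.2 CPM in GFP125 mice (0.71 ± 0.10, adjusted p = 0.000646; 0.55 with the offset).

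Depth, the Comb mark and the experiment were partly tied to each other in these 6 mice: the unmarked GFP125-14 and GFP125-15 were also the shallowest libraries, and thinning all 6 to the total of the smallest left 3347 genes called. Which part of the differences came from the animals and which from the preparation of the RNA and libraries cannot be told apart, because each experiment was 1 set of mice and libraries.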

How the data were processed

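RNA of hippocampal tissue (1 mouse per library) was sequenced as single-end reads of 50 bases. The sources differ on the library kit, and on the genome build, mm9 in the study's methods and mm10 in the submitters' processing notes, which also name STAR and edgeR. The deposited values were whole-number counts of reads per RefSeq transcript that the authors made with a counting program not given in the sources used here, and nothing was normalized. Of 32850 rows 98.7% were matched to a gene and summed to 24209 genes. The 428 unmatched rows were kept under their own identifiers. The 4737 genes with several rows held 3.77% of the counts of the GFP mice. Their median total over the 12 mRNA-seq libraries was 32 counts, against 500.5 for genes with 1 row. Whether reads shared between rows were lost was not tested. A low or missing count therefore does not show low expression. Levels of genes with several rows, such as Camk2a and Meg3 (3 rows each), are uncertain.

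Groups followed the labels. Genes were filtered with filterByExpr, scaled by TMM and tested on the 6 GFP mice with edgeR's quasi-likelihood test (edgeR 4.0.16, limma 3.58.1, R 4.3.3), with Benjamini-Hochberg adjustment over all genes tested and a threshold of 0.05. The standard error is the log2 difference over the root of F. The study's methods name DESeq, and DESeq2 1.42.0 was an alternative. The length offset was a lowess curve (span 0.3) of each library's log-CPM deviation on log10 length. The sponge contrast was fitted on its own 6 mice, and the difference of both contrasts on 12. Figures were drawn with matplotlib 3.10.9, and values summarised with pandas 2.3.3, scipy 1.17.1 and numpy 2.4.6 under Python 3.11.15. The code for the tests was tested on simulated data. The alternatives were other scalings, filters and tools, single rows per gene, and each mouse left out. Added after the data were seen were the Comb mark as a term, marked libraries only, thinned counts, and the sponge contrast without miR124sp-9. Where GFP125 is reduced to 1 library, that library is assumed to vary like the others. Depth sets the precision, and the shallowest libraries were GFP125-14 and GFP125-15.

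The mice, gene lists and tests were chosen with earlier results of these data known. Named genes were, among those called with a mean of at least 5 CPM and no overlap of groups, the 10 highest and 10 lowest differences, then all called members of a list up to 6, otherwise the 4 of smallest p per direction, a set of check genes, and the 2 called genes of smallest p per length class. The text describes a part of these. Egr2, Egr4, Npas4, Dusp1, Sik1, Gadd45g, Slc1a2, Shank3, Nwd1, Zdhhc22, Rims3 and the genes of the closing observations were chosen after their values were seen. Replicates were separate mice according to the study's methods. Nnt and Rn45s are not analysed here, and some genes that the rule picks are not reported here.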

Additional observations from a re-analysis of the deposited data

Results flagged for a closer look

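The difference between GFP124 and GFP125 mice and that between miR124sp and miR125sp mice were set against each other in edgeR's interaction test over 12 mice, which 1937 genes passed. Among the 10 highest and 10 lowest genes of the GFP mice, 7 did. These genes were picked by their difference in the GFP mice, which is part of the interaction and so favours large values. Of the 4054 genes called between the GFP mice and tested there, likewise picked by that difference, 1642 passed. The values given are the GFP difference minus the sponge difference on the log2 scale. Trh had 4.53 (adjusted p = 0.0110), with 0.347, 0.907 and 0.471 CPM in miR124sp mice and 4.71, 0.742 and 0.627 CPM in miR125sp mice, where miR125sp-6 was the highest. Ngb had 1.80 (adjusted p = 0.00797), Gng13 1.17 (adjusted p = 0.00206) and Mroh7 0.74 (adjusted p = 0.0326). Syt2 had -2.20 (adjusted p = 0.00294), Egr1 -0.86 (adjusted p = 0.00846) and Fos -0.74 (adjusted p = 0.0390). The sponge mice differ in the sponge as well as in the experiment, and the part of each in these values cannot be told apart.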

How the results depend on the processing

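No paired analysis was possible because the GFP124 mice (8, 15 and 20) and the GFP125 mice (4, 14 and 15) share only the number 15, and the miR124sp mice (2, 9 and 14) and miR125sp mice (6, 9 and 24) only the number 9. The 4055 calls between GFP mice were 4058 with RLE scaling, 3489 with DESeq2, 2462 with the length offset, 920 at a fold of 1.2, 972 between marked libraries only, and 2448 (without GFP124-15) to 4158 (without GFP124-8) with 1 mouse left out. The 232 sponge calls were 419 in a fit of 12 mice and 0 to 1907 with 1 mouse left out. With the length offset, the members called were 0 for oligodendrocytes and myelin, oligodendrocyte precursors, ependyma, thalamus and habenula, striatum and substrain genes, 1 for dentate granule cells, CA2 and sex-linked genes, 2 for CA3, gliosis and structural non-coding RNAs, 3 for CA1 and small nucleolar RNAs, 4 for glucocorticoid-responsive genes, 6 for the proteasome, 8 for histones, 10 for interferon genes and oxidative phosphorylation, 11 for mitochondrial and 23 for cytosolic ribosomal proteins, 19 for protocadherins and 40 for zinc finger proteins. In the fit of 12 mice they were 0 for CA2 and for thalamus and habenula, 1 for ependyma and striatum, 2 for CA3, 7 for housekeeping genes and 8 for microRNA precursors. The length offset turned the sign of Tyrobp (-0.10), Stmn3 (-0.0091), Pcp4 (-0.19), Mrpl52 (-0.0016), Uqcr10 (-0.0050), Mir6236 (-0.0870) and Mir682 (-0.26). Of 194 genes called among the 200 picked by the naming rule or named beside it, 64 kept their call and direction in every setting run. With the offset 52 lost the call at the same sign, and 7 more turned their sign. More lost it between marked libraries only, where 1 mouse stands for GFP125. The causes were not tested. Spearman's correlation of length and difference across genes ranged from -0.49 to -0.41.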

Other observations

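Some genes differed between the experiments in the GFP mice and in the sponge mice, which share no library. Fat2, a giant cadherin best known from cerebellar granule cells, had 0.335, 0.138 and 1.25 CPM in GFP124 mice and 2.19, 3.67 and 3.97 CPM in GFP125 mice (-2.48 ± 0.53, edgeR adjusted p = 0.00421), and 0.0693, 0.378 and 0.176 CPM in miR124sp mice and 2.57, 1.48 and 2.80 CPM in miR125sp mice (-3.44 ± 0.47, adjusted p = 0.0233). Pde11a, an enzyme that degrades cyclic nucleotides, was lower in both (-0.55 ± 0.12 between GFP124 and GFP125 mice, adjusted p = 0.00586, and -1.12 ± 0.12 between miR124sp and miR125sp mice, adjusted p = 0.0128). Scn4b, a sodium channel subunit, was called in opposite directions. It had 24.9, 22.5 and 26.4 CPM in GFP124 mice and 34.6, 51.6 and 42.2 CPM in GFP125 mice (-0.77 ± 0.13, adjusted p = 0.00107), but 119.7, 71.8 and 139.8 CPM in miR124sp mice and 46.5, 42.1 and 54.3 CPM in miR125sp mice (1.22 ± 0.22, adjusted p = 0.0385).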
